A study of Rattus with 9 samples.

Results

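Voltage-gated calcium channels of neurons are built around a pore-forming alpha1 subunit and carry auxiliary subunits that set how many channels reach the membrane and how they gate. The alpha2delta subunits are anchored on the outer face of the membrane and promote trafficking of the channel to the axon terminal. The beta subunits are cytoplasmic, bind a conserved loop of the pore of high-voltage-activated channels and shape surface expression and inactivation. In sensory ganglia these genes are known from pain research: Cacna2d1 rises in rat dorsal root ganglia after peripheral nerve injury, and its product is the main target of gabapentin and pregabalin.

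The genes examined were the 3 alpha2delta genes Cacna2d1, Cacna2d2 and Cacna2d3 and the 4 beta genes Cacnb1, Cacnb2, Cacnb3 and Cacnb4, taken by symbol from the deposited gene table. These are 7 of 17378 genes, and all 7 were among the 11711 with enough counts to be tested. The set was chosen with results of these data known: Cacna2d2 ranked 11th of the 11711 genes by p in the comparison of infarcted with sham rats. For that reason the values of that comparison are given below as a description, and their p-values serve as no support.

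Poly-A RNA from thoracic dorsal root ganglia was sequenced in SD rats, 5 with myocardial infarction (MI) after coronary ligation and 4 after sham surgery, collected 8 weeks later. The rats carried no further allele or agent in the labels; the sources used here do not give the age of the animals. Each library came from a separate rat. The deposited tables name the MI group CHF. Total counts lay between 6033134 and 6861355 in MI libraries and between 5656582 and 6313128 in sham libraries, and RNA integrity numbers between 8 and 8.5 in MI and between 8.2 and 8.4 in sham rats. No pair of libraries agreed within sampling noise.

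The tissue label fitted its markers. All 12 pan-neuronal markers were detected, with a summed level, in CPM (library-scaled read counts), of 42380 to 48442 after MI and 43316 to 44971 after sham surgery. Markers of satellite glia summed to 7421 to 8902 CPM after MI and 7502 to 8774 CPM after sham surgery, and those of Schwann cells to 9870 to 15595 CPM after MI and 11827 to 14863 CPM after sham surgery. Every value below is therefore a mixture over cell types, in which fewer cells of a type and less RNA per cell cannot be told apart.

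The 7 genes spanned a wide range of expression. Levels between genes are compared as deposited RPKM, which scales reads by gene length and library size. Cacnb3, a beta subunit found with N-type channels of neurons, was the most abundant, at 55.7 ± 3.86 RPKM in MI (SD, n = 5) and 61.0 ± 6.05 RPKM in sham ganglia (SD, n = 4). Cacna2d3, a gene of heat nociception in flies and mice whose product does not bind gabapentin, followed at 20.01 ± 1.95 RPKM in MI and 20.6 ± 1.24 RPKM in sham ganglia. Next came Cacna2d1, at 11.5 ± 1.396 RPKM in MI and 12.5 ± 1.07 RPKM in sham ganglia, and Cacnb4, the gene mutated in the lethargic mouse, at 11.6 ± 0.440 RPKM in MI and 10.9 ± 0.755 RPKM in sham ganglia.

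Cacnb1, whose product is the beta subunit of the skeletal muscle calcium channel and is also made in neurons, stood at 5.67 ± 0.926 RPKM in MI and 6.36 ± 0.454 RPKM in sham ganglia. Cacna2d2, the gene mutated in the ataxic ducky mouse and the other gabapentin-binding subunit, stood at 5.22 ± 0.461 RPKM in MI and 6.52 ± 0.123 RPKM in sham ganglia. Cacnb2, the main beta subunit of heart muscle, was the scarcest, at 0.804 ± 0.113 RPKM in MI and 0.841 ± 0.214 RPKM in sham ganglia. Among the tested genes Cacnb3 lay at the 91.6th percentile of mean RPKM and Cacnb2 at the 5.35th.

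Over the 9 libraries the mean of Cacnb3 was 2.86 times that of Cacna2d3, which was 1.70 times that of Cacna2d1. These steps held in 9 of 9 libraries, with ranges that did not overlap. The same was true of the step from Cacnb4 to Cacnb1, a ratio of 1.89, and of that from Cacna2d2 to Cacnb2, a ratio of 7.07. Cacna2d1 and Cacnb4 were not separated: their ranges overlapped, and Cacna2d1 was the higher in 6 of 9 libraries. Cacna2d1 was the higher in every sham library, while the order was mixed in MI libraries. Cacnb1 and Cacna2d2 were not separated either, with Cacnb1 the higher in 5 of 9.

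**Figure D1:**
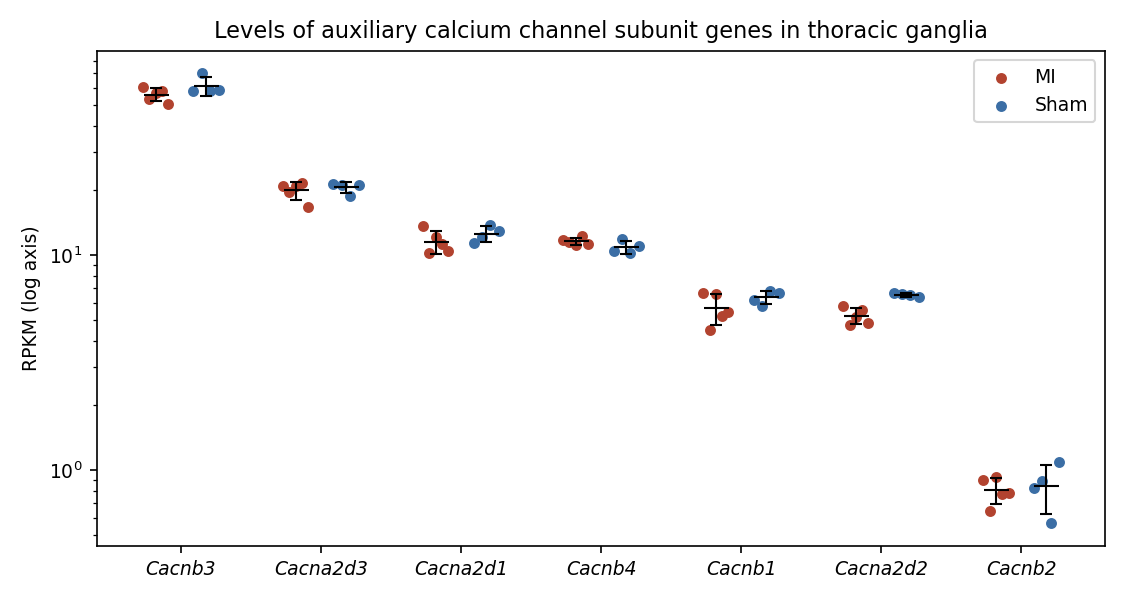
RPKM (log axis) of the 7 auxiliary subunit genes, ordered by mean level, with 1 point per library, MI left of sham, and black bars for the mean ± SD. Cacnb3 lies above 50 RPKM in all 9 libraries and Cacnb2 near 1 RPKM, and Cacna2d2 is the gene in which the MI and sham points do not overlap.

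Within the alpha2delta class Cacna2d3 held most of the summed RPKM, 54.5 ± 2.26% in MI and 52.0 ± 2.73% in sham ganglia. Cacna2d1 held 31.3 ± 1.94% in MI and 31.6 ± 2.78% in sham ganglia. Cacna2d2 held 13.5% to 15.2% in the 5 MI libraries and 15.7% to 16.8% in the 4 sham libraries, ranges that did not overlap. Within the beta class Cacnb3 held 75.5 ± 0.752% in MI and 77.0 ± 1.43% in sham ganglia. Cacnb4 held 14.8% to 16.6% in MI libraries and 13.4% to 14.3% in sham libraries, again without overlap. In CPM the groups of Cacnb4 did overlap, with Sham 2 at 74.2 CPM and MI libraries at 69.7 to 77.1 CPM. Cacnb1 held 7.67 ± 0.987% in MI and 8.11 ± 1.09% in sham ganglia, and Cacnb2 1.09 ± 0.121% in MI and 1.06 ± 0.271% in sham ganglia. Shares within a class are bound to each other, and they come from the comparison that chose Cacna2d2, so they are values without a test. How often shares within other gene sets separate the groups was not computed.

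**Figure D2:**
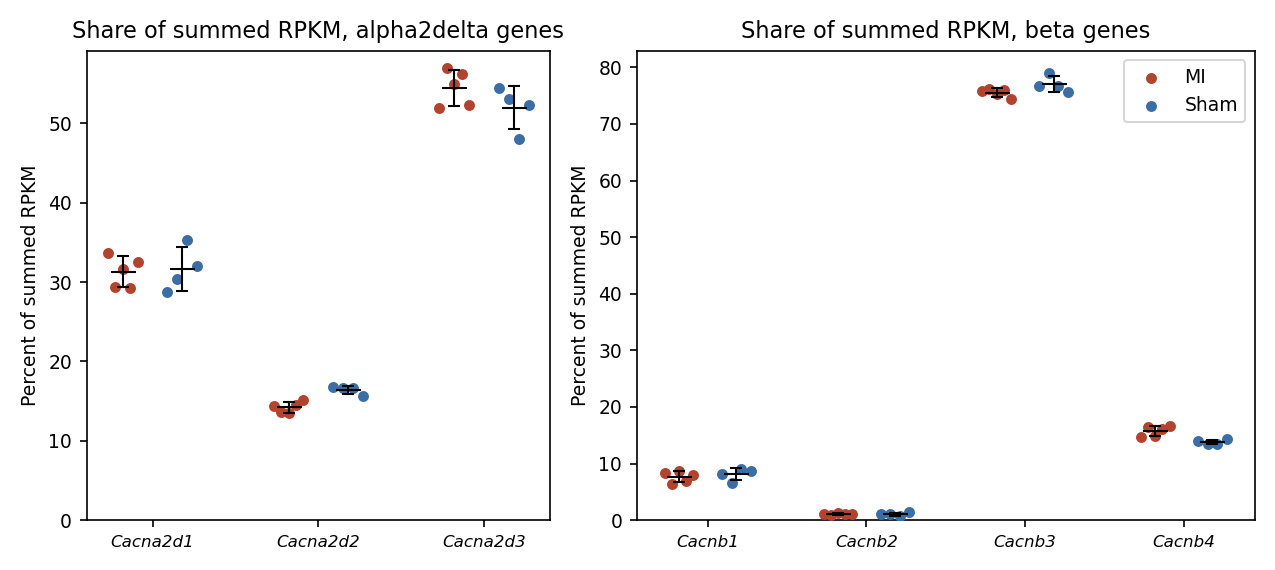
Percent of the summed RPKM of its class held by each alpha2delta gene (left) and each beta gene (right), 1 point per library, MI left of sham, black bars for the mean ± SD. The MI points of Cacna2d2 lie between 13.5% and 15.2%, below the sham points. Those of Cacnb4 lie between 14.8% and 16.6%, above the sham points. The shares were not tested, and in CPM the groups of Cacnb4 overlapped.

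The comparison of MI with sham ganglia asked whether transcripts of the sensory ganglion differed after infarction. By the edgeR likelihood-ratio test with Benjamini-Hochberg adjustment over all 11711 genes, 2 genes passed a threshold of 0.05, which is 0.0171% of those tested, and none was an auxiliary subunit gene. The quasi-likelihood test called 0 genes, 0% of those tested, with 602 at an unadjusted p under 0.05, and limma-voom also called 0. Of the 7 members, 6 had a fitted log2 fold change below 0, as did 49.2% of all tested genes. The members' median log2 fold change was -0.13, beside 0.00 over all tested genes. At an unadjusted p under 0.05 there was 1 member, Cacna2d2, where 4.64% of all genes lay under it.

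Cacna2d2 stood at 33.6, 27.1, 29.8, 32.5 and 28.0 CPM in MI 1 to MI 5, against 38.7, 37.9, 37.6 and 37.0 CPM in Sham 1 to Sham 4. All 5 MI rats lay below all 4 sham rats, as was the case for 0.905% of all tested genes. The means were 30.2 ± 2.80 CPM after MI (SD, n = 5) and 37.8 ± 0.709 CPM after sham surgery (SD, n = 4). The fold change was 0.799 (log2 -0.32, SE 0.07, edgeR likelihood-ratio adjusted p = 0.258, quasi-likelihood adjusted p = 0.920), so it did not pass over all genes. The limma-voom interval of the log2 difference ran from -0.49 to -0.16. In the authors' deposited table the fold change was 0.798 and the adjusted p was 0.270, also above 0.05.

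The counts behind Cacna2d2 were 165 to 240 reads per library. The sham libraries varied by 1.87% of their mean, less than the 6.57% that counting error alone gives at this depth, and the MI libraries by 9.28%, beside 7.25% from counting. The small SE of the difference rests in part on those 4 close sham values.

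Cacna2d1 stood at 88.7, 65.5, 78.9, 73.6 and 67.8 CPM in MI 1 to MI 5, against 74.5, 78.1, 89.8 and 84.9 CPM in Sham 1 to Sham 4. The groups overlapped: MI 1 was close to the highest sham rat, while MI 2, MI 4 and MI 5 lay below every sham rat. The fold change was 0.915 (log2 -0.13, SE 0.10, edgeR likelihood-ratio adjusted p = 1.00), with a limma-voom interval from -0.32 to 0.05. The log2 value was -0.20 without MI 1, -0.09 without MI 2 and -0.08 without Sham 3.

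Cacna2d3 stood at 114, 105, 114, 117 and 90.2 CPM in MI 1 to MI 5, against 117, 113, 101 and 115 CPM in Sham 1 to Sham 4. The groups overlapped almost wholly and MI 5 was the lowest library. The log2 fold change was -0.05 (SE 0.09, interval -0.22 to 0.11).

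Among the beta genes Cacnb3 stood at 252, 219, 236, 242 and 210 CPM in MI 1 to MI 5, against 243, 290, 241 and 244 CPM in Sham 1 to Sham 4. Of the MI rats, 3 lay below every sham rat, and Sham 2 lay far above the other sham rats. The log2 fold change was -0.13 (SE 0.08, edgeR likelihood-ratio adjusted p = 1.00, limma-voom interval -0.28 to 0.01), and it was -0.07 without Sham 2.

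Cacnb4 was the member with a positive fitted change. It stood at 73.7, 71.3, 69.7, 77.1 and 70.4 CPM in MI 1 to MI 5, against 66.3, 74.2, 63.8 and 69.6 CPM in Sham 1 to Sham 4. Each MI rat lay above 3 of the sham rats, and Sham 2 stood among the higher MI rats. The log2 fold change was 0.08 (SE 0.05, edgeR likelihood-ratio adjusted p = 1.00, limma-voom interval -0.05 to 0.21). Sham 2 was thus the highest sham library in both genes, and the ratio of Cacnb3 to Cacnb4 RPKM was 4.81 ± 0.283 in MI and 5.58 ± 0.256 in sham ganglia. It lay between 4.49 and 5.14 in MI and between 5.27 and 5.88 in sham rats, without overlap. This ratio was singled out after its values were seen and was not tested. How often ratios of other gene pairs separate the groups was not computed.

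Cacnb1 stood at 35.9, 24.0, 35.5, 28.3 and 29.2 CPM in MI 1 to MI 5, against 33.7, 31.1, 36.7 and 36.2 CPM in Sham 1 to Sham 4. MI 1 and MI 3 lay within the sham range, and MI 2, MI 4 and MI 5 below it. The log2 fold change was -0.17 (SE 0.13, limma-voom interval -0.42 to 0.06). Cacnb2 was covered by 23 to 44 reads per library, where counting error alone gives 17.4% of the mean, and its log2 fold change of -0.07 (SE 0.19) had an interval of -0.48 to 0.40.

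**Figure D3:**
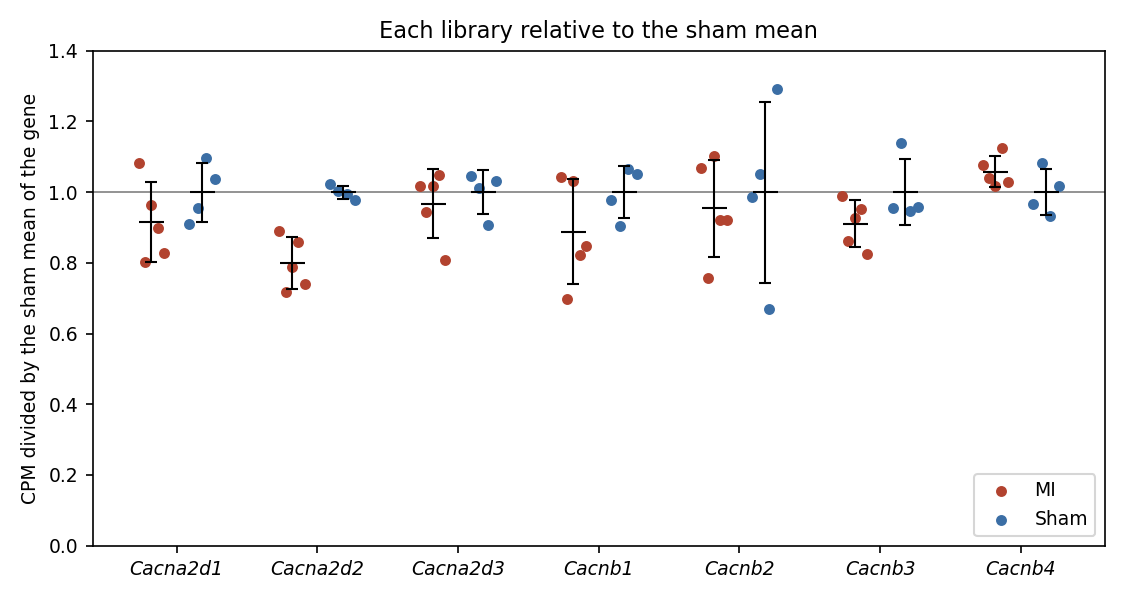
CPM of each gene divided by its sham mean, 1 point per library, MI left of sham, black bars for the mean ± SD, with a grey line at the sham mean. The MI points of Cacna2d2 lie between 0.717 and 0.890 and the sham points between 0.978 and 1.02; in the other 6 genes the groups overlap.

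The members did not all move together between animals. Over the 9 libraries the 21 pairs of genes had a median Pearson r of 0.36, from -0.44 for Cacnb1 with Cacnb4 to 0.88 for Cacna2d1 with Cacnb1, on log2 CPM. Of the 21 pairs, 1 passed an exact permutation test after Benjamini-Hochberg adjustment over the pairs. This was Cacna2d1 with Cacnb1, whose r was 0.88 (two-sided exact permutation p = 0.000785, adjusted p = 0.0165) and whose Spearman's rho was 0.95 (exact permutation p = 0.000353, adjusted p = 0.00741). Without the 2 libraries farthest from the median of Cacna2d1, r was 0.77. Leaving out each library in turn gave 0.83 to 0.91. After centring each gene within its group r was 0.85, a value that was not tested. The permutations ran over all 9 libraries without regard to group. Their p-values therefore cover a shared group difference as well as variation between rats within a group. Of 11540 other genes, 0.113% had an r with Cacna2d1 at least as high as that of Cacnb1, and 0.0953% one with Cacnb1 at least as high as that of Cacna2d1, counting the pair itself.

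Sham 3, MI 1 and Sham 4 were the highest libraries in both genes, with MI 3 high in Cacnb1. MI 2, MI 4 and MI 5 were the lowest in both and lay below every sham rat in each. The products of Cacna2d1 and Cacnb1 are also the alpha2delta and beta subunits of the skeletal muscle channel. Skeletal muscle markers summed to 129 CPM in Sham 3 and 114 CPM in MI 3, against 21.6 to 57.8 CPM in the other 7 libraries, with 33.6 CPM in MI 1. The muscle pore gene Cacna1s had 1 to 9 reads per library, and the muscle gamma gene Cacng1 had 1 read in all, in Sham 3. The listed pore genes summed to 309, 334 and 331 CPM in MI 2, MI 4 and MI 5. Their sum was 372 CPM in MI 3, 416 CPM in MI 1 and 362 to 401 CPM in sham libraries. The part of muscle RNA, or of a pattern shared with the pore genes, in the correlation was not tested beyond these values.

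**Figure D4:**
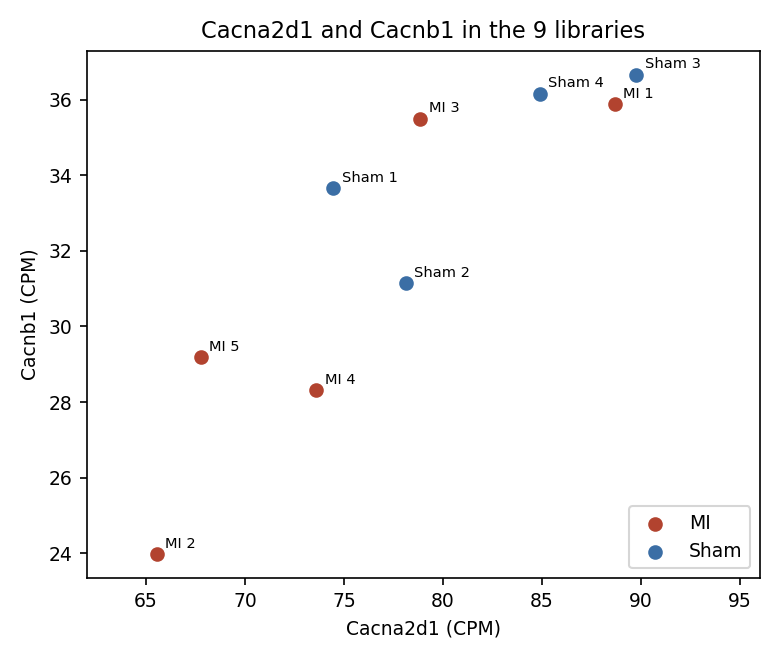
Cacna2d1 against Cacnb1 in CPM, 1 labelled point per library, MI in red and sham in blue. MI 2 is lowest in both genes, at 65.5 and 24.0 CPM, and Sham 3 highest in both, at 89.8 and 36.7 CPM; MI 2, MI 4 and MI 5 lie below every sham rat in both genes.

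MI 2 was the lowest of the 9 libraries in 3 of the 7 members, MI 5 in 2 (Cacna2d3 and Cacnb3) and Sham 3 in 2 (Cacnb2 and Cacnb4). The members summed to 517 CPM in MI 2 and 501 CPM in MI 5, against 569 to 603 CPM in the other MI libraries and 574 to 630 CPM in sham libraries. Peptidergic nociceptor markers were lowest in the same libraries, at 2600 CPM in MI 2 and 2354 CPM in MI 5, against 2879 to 3315 CPM in the other MI and 2848 to 3174 CPM in sham libraries. Non-peptidergic nociceptor markers were also lowest in these, at 1189 and 1034 CPM. Both nociceptor lists count Scn11a, at a mean of 519 CPM after MI, so these sums are not independent. The pan-neuronal sum was not lowest in this pair: it stood at 42519 CPM in MI 2 and 45497 CPM in MI 5. The other MI libraries had 42380 to 48442 CPM and sham libraries 43316 to 44971 CPM. Most of that sum came from Nefm, Map1b and Nefl, at means of 12423.5, 10234.7 and 9483.7 CPM after MI. It therefore says little of the scarcer pan-neuronal markers. Markers of large myelinated neurons stood at 10245 CPM in MI 2 and 11259 CPM in MI 5, against 10406.5 to 11068.8 CPM in sham libraries. Mural cell markers were highest in this pair, at 421 CPM in MI 2 and 488 CPM in MI 5, against 329 to 398 CPM in the other MI and 292 to 345 CPM in sham libraries. Endothelial markers stood at 428 CPM in MI 2 and 387 CPM in MI 5, against 282 to 370 CPM in the other MI and 275 to 394 CPM in sham libraries. Schwann cell and satellite glia markers were highest in MI 5, at 15595 and 8902 CPM. The RNA integrity number was 8 in MI 2, the lowest, and 8.5 in MI 5, the highest value, which MI 1 shared. All 10 peptidergic markers were detected, and 10 of the 10 tested had a fitted log2 fold change below 0. Their median was -0.14, and 0 passed. Over all tested genes 49.2% had a fitted value below 0, and the median was 0.00. The part of these cell types and of RNA quality in the members' values was not tested.

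After centring within groups, the 3 genes whose library pattern was most like that of Cacna2d2 over the 9 libraries were Pik3r1, a regulatory subunit of phosphoinositide kinase (Pearson r 0.95), Rab6b, a neuronal Golgi trafficking GTPase (0.95), and Rnf125, a ubiquitin ligase (0.95). They were picked from 11540 genes, of which 26 had an r above 0.9. Without centring their r was 0.53, 0.68 and 0.73. The log2 fold changes of these genes were -0.01, -0.04 and -0.13, beside -0.32 for Cacna2d2.

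None of the other channel subunit genes passed the threshold either. Of the other 9 auxiliary genes, 5 were tested, 0 were higher and 5 lower in MI by fitted value, and 0 passed. Of all tested genes 49.2% were lower by fitted value. Cacng5, a gamma-family gene whose product regulates AMPA receptors, had the smallest p, with 4.55 ± 0.876 CPM after MI and 6.52 ± 1.43 CPM after sham surgery (log2 -0.52, SE 0.18, edgeR likelihood-ratio adjusted p = 0.903). Cacng7, a related gene, was the most abundant of these at 24.0 ± 1.99 RPKM in MI and 26.2 ± 0.428 RPKM in sham ganglia. Cacna2d4, the retinal alpha2delta gene, had 3 reads in MI 2 and 0 in the other 8 libraries, so the alpha2delta signal of the ganglia came from the other members of its class.

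Of 10 pore genes 8 were tested, with 1 higher and 7 lower by fitted value and 0 past the threshold. Cacna1b, the N-type pore that carries much of the transmitter release from nociceptor terminals, had the smallest p, at 127 ± 16.5 CPM after MI and 140 ± 9.19 CPM after sham surgery (log2 -0.14, SE 0.10, edgeR likelihood-ratio adjusted p = 1.00). Cacna1a, the P/Q-type pore, had log2 -0.05, Cacna1c, an L-type pore, -0.13, and Cacna1h, a T-type pore of sensory neurons, -0.16. Cacna1d, the other L-type pore tested, was the higher one at 0.08. Over all 26 channel subunit genes listed, 20 were tested, 18 had a fitted value below 0, and the median was -0.13. Of all tested genes 49.2% lay below 0. The 20 include the 5 tested gamma-family genes, all of them lower. They also include the 7 members, chosen with results known, of which 6 were lower.

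**Figure D5:**
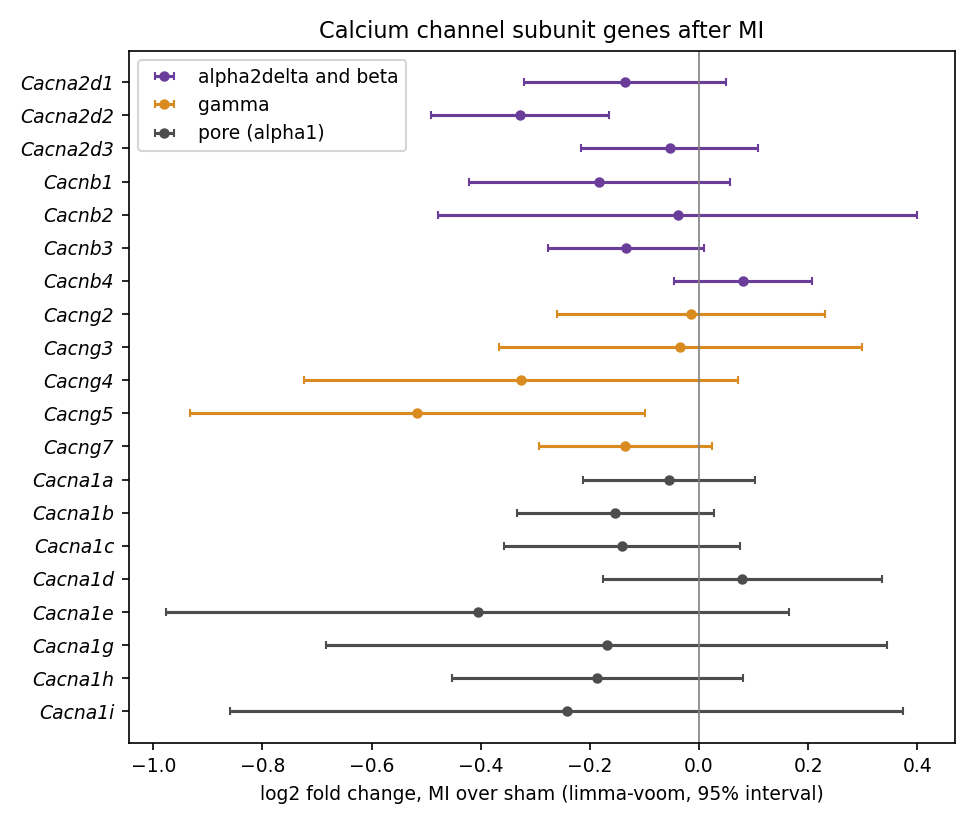
Log2 fold change of MI over sham (limma-voom, bars 95% intervals) for the 20 tested calcium channel subunit genes, coloured by class. Most points lie left of 0 with intervals that include 0. The intervals of Cacna2d2, from -0.49 to -0.16, and of Cacng5 do not include 0. Intervals are not adjusted for the number of genes, and neither gene passed the threshold over all genes.

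Genes whose products bind the auxiliary subunits were covered by lists of 12 each. Their directions stand beside 49.2% of all tested genes with a fitted value below 0. Of the alpha2delta partners, which include the thrombospondins, neurexins, Lrp1 and NMDA receptor subunits, 10 were tested, 2 higher and 8 lower, with a median log2 of -0.04 and 0 passing. The smallest p was that of Grin2b, an NMDA receptor subunit, at a low 1.38 ± 0.637 CPM after MI and 2.301 ± 0.725 CPM after sham surgery (log2 -0.75, SE 0.33, adjusted p = 1.00 by edgeR). Thbs4, a thrombospondin that rises in rat ganglia and cord after nerve injury, varied widely, at 47.7 ± 33.3 CPM after MI and 70.4 ± 27.9 CPM after sham surgery. Of the beta partners, which include the RGK GTPases, Cbarp and the RIM proteins, 8 were tested, 2 higher and 6 lower, with a median of -0.03 and 0 passing. Gem, an RGK GTPase that lowers channel surface density, had the smallest p, at 3.77 ± 0.746 CPM after MI and 5.03 ± 0.913 CPM after sham surgery (log2 -0.42, SE 0.17, adjusted p = 1.00 by edgeR).

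Among markers of the cells in the ganglion no list had a member past the threshold. The counts below stand beside 49.2% of all tested genes with a fitted value below 0 and a median log2 of 0.00. By fitted value 7 of 12 pan-neuronal markers were higher in MI (median log2 0.02, smallest p Rbfox3 at -0.21), as were 3 of 11 of large myelinated neurons (median -0.05, Ntrk2 at -0.15) and 2 of 9 of non-peptidergic nociceptors (median -0.11, Scn11a at -0.20). The smallest p among peptidergic markers was that of Trpa1, at -0.40. Satellite glia had 5 of 11 higher (Ednrb at -0.22), Schwann cells 0 of 12 (median -0.12, Cnp at -0.16) and fibroblasts 5 of 9 (Col1a2 at -0.27). Mural cells had 10 of 12 higher (median 0.31, Myh11 at 0.65), macrophages 10 of 12 (median 0.23, Cx3cr1 at 0.77), endothelium 7 of 9 (median 0.13, Erg at 0.42) and skeletal muscle 0 of 8 (median -0.35, Myh4 at -1.09). The part of these cell types in the members' values was not tested.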

How the data were processed

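The series' design text gives the upstream steps: 75 bp reads, bcl2fastq 2.16.0.10, cutadapt, alignment to rn6 by STAR 2.3.0 and gene-level summaries on Partek 6.6 annotations. Rounded by the authors from their deposited estimated counts, the counts are whole reads per gene, per the file headers. RPKM values were scaled by gene length and library size by the authors. The authors' deposited table holds linear fold changes (ratio of MI to sham) and p-values; 8000 of its genes were used here, Cacnb2 not among them. The deposited alignment summary gives the percent of reads in exons, and the deposited sample sheet the RNA integrity score.

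Here the counts entered edgeR 4.0.16 (R 4.3.3) with filterByExpr, TMM scaling, tagwise dispersions and the likelihood-ratio test that the design text names; p-values were adjusted by Benjamini-Hochberg over 11711 genes. The quasi-likelihood test stands beside it, and intervals are 95% intervals of limma-voom (limma 3.58.1), without adjustment over genes. CPM are TMM-scaled, computed here. The SE of a log2 fold change is the pooled error between group means of log2 CPM (prior count 2). Scripts were tested on simulated data. All 7 symbols equal a RefSeq symbol (GRCr8), a build other than that of the files, so coordinates are left out. Whether counting used strand is not stated. Counting errors cover counting only.

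The members, lists and tests were chosen with earlier results of these data known. Genes named are the 7 members, per list those past the threshold or else the smallest p, and the 3 genes most like Cacna2d2; others (Cacng7, Thbs4, Cacna2d4, Cacng1 and single pore genes) were picked with their values known. Other tests (DESeq2 1.42.0, limma-voom, 1 common dispersion), scalings, filters, thresholds and units, a replicate block and the omission of each library served as alternatives.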

Additional observations from a re-analysis of the deposited data

Results flagged for a closer look

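Cacnb3 in sham ganglia had 1 library far from the others by a gap test: Sham 2 stood at 290.1 CPM, against 240.7 to 244.2 CPM in the other 3 sham rats. The test was run on 28 groups of values (CPM and class share of each gene in each group), where chance alone gives about 1.4, and it picked 1. Without Sham 2 the log2 fold change of Cacnb3 was -0.07, beside -0.13 with it, and the gene passed the threshold in neither.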

How the results depend on the processing

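No auxiliary subunit gene passed the threshold under any of the 24 alternatives run. Of 168 log2 values of the 7 genes, 164 kept their direction. The threshold of 0.10 reused the main fit, so its log2 values could not differ. The log2(RPKM + 1) fits with and without a filter gave the same log2 values. Cacna2d3 turned to 0.0118 with the replicate block, a fit that also left out MI 5, and to 0.0114 without MI 5 alone. Its range was -0.0948 to 0.0114 over fits without 1 library. Cacnb2 turned to 0.00379 without MI 2 and to 0.0816 without Sham 4, in a range of -0.223 to 0.0816. Cacna2d2 ranged from -0.37 to -0.28, with an adjusted p from 0.0655 (without MI 1) to 0.920 (quasi-likelihood test). Over fits without 1 library Cacna2d1 ranged from -0.20 to -0.08, Cacnb1 from -0.23 to -0.10, Cacnb3 from -0.17 to -0.07 and Cacnb4 from 0.04 to 0.12.

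The count of 2 genes over the whole table was 0 by the quasi-likelihood test, limma-voom and each of the 3 limma fits on log2 RPKM, 4 with upper-quartile scaling, 6 with no filter, 5 at a threshold of 0.10 and 70 with 1 common dispersion; the cause was not tested. Without 1 library it was 2 to 8, with 8 without MI 1 or Sham 3, 6 without MI 5 and 4 without MI 4. With the replicate block, a fit that also left out MI 5, it was 11. The numbers do not pair the rats, though: same-numbered libraries correlated at -0.14 to 0.09. None of the 4 MI libraries correlated best with its own number.

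In CPM, which is not scaled by gene length, the class shares were 35.2% for Cacna2d1, 49.6% for Cacna2d3, 9.22% for Cacnb1, 1.51% for Cacnb2, 69.0% for Cacnb3 and 20.3% for Cacnb4, against RPKM shares over all 9 libraries of 31.4%, 53.4%, 7.86%, 1.08%, 76.2% and 14.9%. The median r of the 21 pairs ranged from 0.31 to 0.59 over fits without 1 library, the highest without Sham 3.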
